A study of Sus scrofa with 4 samples.

Results

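Regions of open chromatin that were called as peaks in both vector control libraries and in neither BRG1 library were examined in porcine fetal fibroblasts (PFFs). The peaks of all 4 libraries were merged into 121788 union regions wherever they overlapped by at least 1 bp, and 5376 of these were control-only, which is 4.41% of all union regions. The members were chosen by the calls of all 4 libraries themselves, so their number, their presence in the controls and their absence from the BRG1 lists describe that choice and were not tested. Of the 5376, 5286 lay on chromosomes 1 to 18, X and Y, and 90 lay on unplaced contigs, which entered no distance or gene count.

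The study over-expressed BRG1 in PFFs, which serve as nucleus donors in cloning, and asked what this does to chromatin openness. Chromatin was profiled by ATAC-seq, in which the transposase Tn5 cuts and tags open DNA. In the BRG1 libraries, cells of the genotype BRG1-overexpressed carried pTK-642-BRG1, and in the control libraries WT cells carried the vector pTK-642, with 2 libraries in each group, numbered 1 and 4. All 4 came from fibroblasts of skin after serum starvation, and the sources used here do not give the promoter of the vector, the share of cells that carried it or whether libraries came from separate cultures.

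BRG1, the product of SMARCA4, is the ATPase that drives the BAF complex, which slides and evicts nucleosomes. In many cell types this complex keeps distal enhancers accessible more than it does promoters. Distal elements are also the part of the open genome that differs most between cell types, whereas most promoters are open in many of them.

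BRG1 1 had 96367 peaks and BRG1 4 had 90851, against 107475 in control 1 and 105954 in control 4. Read depth is not known. The lowest background that the fold and p-value of a peak imply stood in for it. Relative to control 1 this background was 81.2% in BRG1 1, 92.6% in BRG1 4 and 93.5% in control 4. It equals relative depth only if the caller's settings acted alike on all libraries, and these settings are not known. Both BRG1 lists were thus shorter than both control lists. The lowest background was clearly lower in BRG1 1 only, while BRG1 4 lay just below control 4. The part of list length and of depth in the absence of a call was not tested. BRG1 4 stood apart by its peak width, at a median of 541 bp against 404 bp in BRG1 1, 403 bp in control 1 and 396 bp in control 4. Of 11 fibroblast markers, 10 had a peak within 1 kb of a gene end in all 4 libraries and DCN, which encodes decorin, had one in none. Such a peak in all 4 libraries was found for 1 of 4 keratinocyte, 1 of 4 endothelial and 2 of 5 immune markers. It was also found for 2 of 5 melanocyte and glial, 2 of 4 muscle and 2 of 4 adipocyte markers. Markers with such a peak in no library included KRT5, PECAM1 and PTPRC. The SMARCA4 gene model on chromosome 2, the endogenous gene of BRG1, held 4 union regions, of which 3 were called in all 4 libraries and 0 were control-only.

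Control-only regions were narrow, weak peaks. Their peaks reached a median fold over background, as the authors' caller gave it, of 4.80 in control 1, with a range of 1.51 to 10.6, and of 5.02 in control 4, with a range of 1.47 to 14.3. The pileup at the summit, the number of tags that the fold and p-value imply, had a median of 15 in control 1 and 14 in control 4, with quartiles of 12 to 19 and 12 to 18. BRG1 libraries have no peak value here by the rule of choice, which means only that no peak was called there at their depth. The region as a whole was 291 bp wide at the median, with quartiles of 256 and 343 bp, against 708 bp for the 75244 regions called in all 4 libraries.

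The summits of both controls lay 27 bp apart at the median, and in 4896 of the 5376 regions (91.1%) they lay within 100 bp of each other. The rule asks for narrow peaks of both controls in the same merged region, so nearby summits follow in part from the choice. In 5367 regions there was exactly 1 peak of each control. Within its own list, ordered by −log10 p, the median control-only peak stood at percentile 18.1 in control 1 and 16.5 in control 4. In 3055 regions (56.8%) both peaks stood below percentile 25, and in 8 regions both stood above percentile 50. The 2 percentiles were loosely related, with a Spearman rho of 0.391 over 5376 regions of the same 2 libraries, given as a description. The median percentile over both libraries of a set was 16.5 in the control-only set, 13.0 in the BRG1-only set and 12.5 to 14.9 in the mixed sets, each private to 1 BRG1 and 1 control library, so low rank was common to all 6 sets. Almost no control-only region was among the stronger peaks of both lists.

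**Figure D1:**
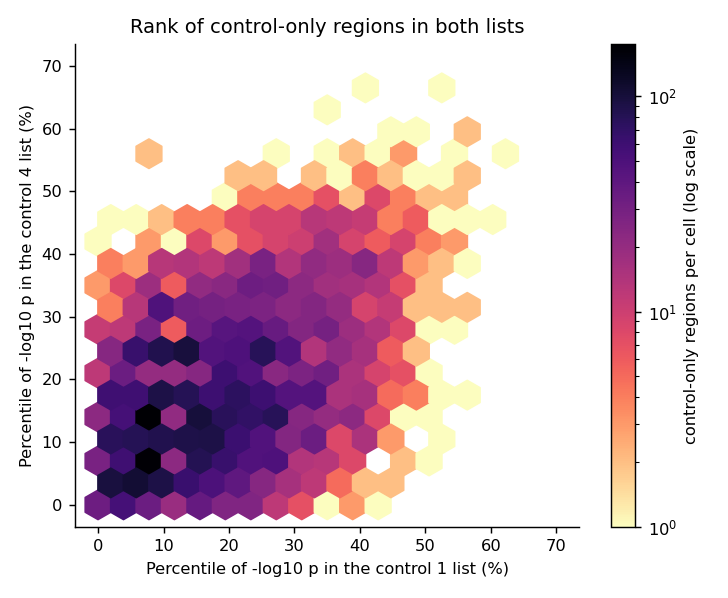
Rank of the 5376 control-only regions within the peak lists of control 1 (x axis) and control 4 (y axis), as the percentile of −log10 p in each list, with the number of regions per cell in colour on a log scale. The regions crowd at low percentiles, with medians of 18.1 and 16.5, and 8 lie above percentile 50 in both lists.

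Regions just outside the rule were also of low rank, though above control-only regions in the controls. There were 7785 regions called in both controls and in BRG1 1 but not in BRG1 4, and the peak in BRG1 1 had a median percentile of 23.7 there and a median fold of 5.48. Another 3328 were called in both controls and in BRG1 4 but not in BRG1 1, with a median percentile of 15.9 and a median fold of 4.58 in BRG1 4. In the controls the first of these sets stood at a median percentile of 28.1, and the second lower. They were thus also regions of low rank, and 1 further call separates them from the control-only regions.

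By the rule no control-only region overlaps a BRG1 peak, so the distance to BRG1 peaks depends on the choice. It is given here for no other set. The nearest peak of either BRG1 library lay 6123 bp from control-only regions at the median. It lay within 100 bp for 39 regions (0.725%), within 200 bp for 161, within 1 kb for 739 (13.7%) and within 10 kb for 3517 (65.4%). For 102 regions it lay over 100 kb away. The nearest shared region, one called in all 4 libraries, lay at a median of 8522.5 bp from control-only regions, 4124 bp from BRG1-only regions and 6043.5 to 6777 bp from the mixed sets. It lay 8245.5 bp from regions of control 1 alone, 7941.5 bp from those of control 4 alone and 7975 bp from those that lacked only the BRG1 1 call. From those that lacked only the BRG1 4 call it lay 6340 bp away.

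Control-only regions were divided by their background, after the data were seen, into 3 classes. In 3569 regions (66.4%) the background of both control peaks lay within 1% of the lowest that the control-only peaks of its library had. Their median pileup was 13 in control 1 and 13 in control 4, they lay 14161 bp from the nearest shared region, and they lay 45252.5 bp from the nearest gene end. In 1546 regions (28.8%) the background was higher in both controls, at a median of 3.83 tags in control 1 and 3.52 in control 4. These regions lay 2227 bp from the nearest shared region and 12842 bp from a gene end, with a median pileup of 20 in each control. A peak on a higher background needs a higher pileup to be called, and nearby tags can raise the background. The differences between these classes thus follow in part from the split. In the remaining 261 regions (4.85%) the background was lowest in 1 control only, and they lay 4692 bp from the nearest shared region. With all peaks, the share of regions at the lowest background in both of their libraries was 66.4% in the control-only set, 39.8% in the BRG1-only set and 51.0% to 54.9% in the 4 mixed sets. These shares come from lists of unequal length, and control-only regions at the lowest background were lost more often with lists of equal length, as given below.

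The sets private to the other 5 pairs of libraries were smaller. BRG1-only regions numbered 903, and the mixed pairs of 1 BRG1 and 1 control library had 1904 (BRG1 1 and control 1), 1513 (BRG1 4 and control 1), 1782 (BRG1 1 and control 4) and 1205 (BRG1 4 and control 4). When every list was shortened to its 90851 peaks with the highest −log10 p, the length of the shortest list, the control-only set had 2240 regions, the BRG1-only set 2245 and the mixed pairs 1413 to 1632. Of the 5376 regions, 1970 (36.6%) remained control-only in the shortened lists. This share was 29.8% among the regions at the lowest background in both controls and 53.4% among those at a higher background in both. Shortening removes only the lowest ranked peaks of a list. Here and below, whether a region remained control-only therefore restates the rank of its control peaks. The difference between these classes is thus no separate result. Peaks of equal −log10 p at the cut were kept in order of chromosome and position. With peaks of a −log10 q of at least 5 in every list, 3397 of the 5376 (63.2%) remained control-only.

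With all peaks, control-only regions lay farther from genes than the sets private to any other pair. About as many of them as of the other sets lay inside a protein-coding gene model, 51.1% against 53.2% of BRG1-only regions and 49.7% to 54.0% of the mixed sets. The nearest gene end, the start or end coordinate of a model, lay 32442 bp from the median control-only region, with quartiles of 9486 and 97229 bp. It lay 24911 bp from BRG1-only regions, 24409 to 28428 bp from the mixed sets and 17224 bp from regions called in all 4 libraries. Other sets with control calls lay nearly as far: 31029 bp for regions that lacked only the BRG1 1 call, 30085 bp for control 1 alone and 28196 bp for control 4 alone. For regions that lacked only the BRG1 4 call it was 24900.5 bp. More than 100 kb from any gene end lay 24.5% of control-only regions, 19.1% of BRG1-only regions and no more than 21.5% of any mixed set. Within 1 kb of a gene end lay 4.52% of control-only regions, 7.22% of BRG1-only regions, 6.23% to 7.09% of the mixed sets and 18.4% of regions called in all 4 libraries. This order was lost with lists of equal length: the median distance was 26177 bp for the control-only set, 27642 bp for the BRG1-only set and up to 31173 bp for the mixed sets.

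**Figure D2:**
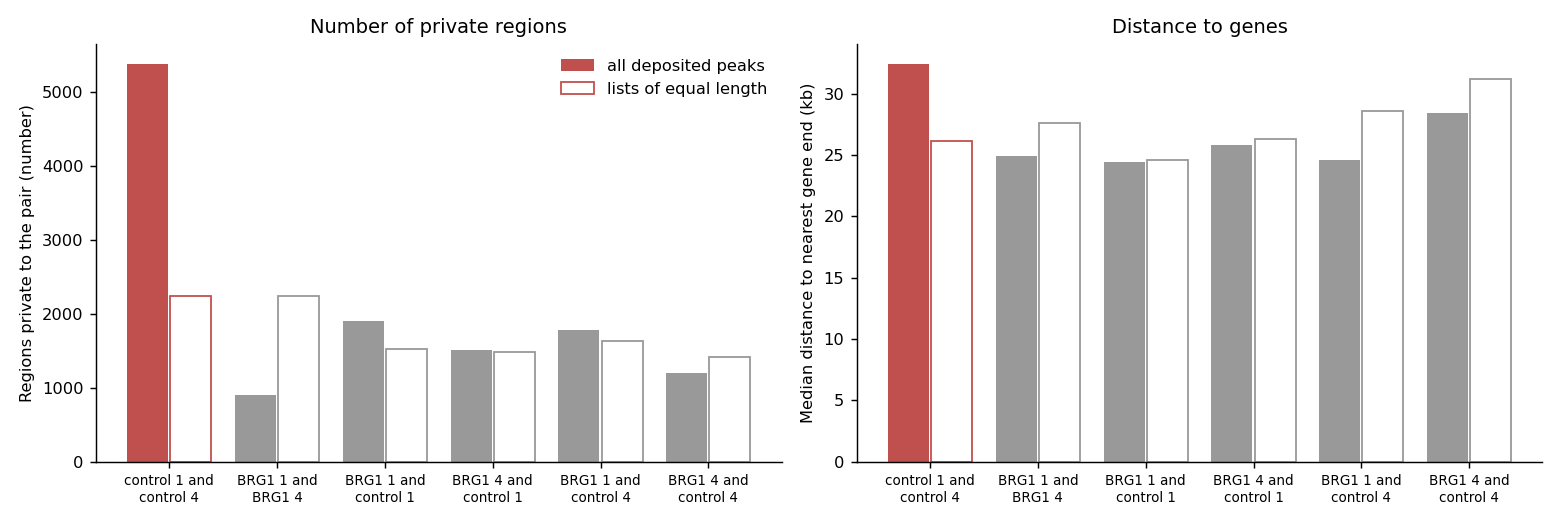
Number of regions private to each pair of libraries (left) and their median distance to the nearest gene end in kb (right), with all deposited peaks as filled bars and with lists of equal length as open bars. With all peaks the control-only set, in red, is the most numerous at 5376 and the farthest from gene ends; with lists of equal length it has 2240 regions and lies closer to gene ends than all but 1 of the other sets.

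The share of union regions that was control-only was lowest at gene ends and, with all peaks, higher in each distance class than in the class nearer to genes. It was 1.45% within 1 kb of a gene end (95% Wilson interval 1.28 to 1.65, 239 of 16444 regions), and 7.10% beyond 500 kb (6.08 to 8.28, 149 of 2098 regions), with 4.27%, 4.58%, 5.07% and 5.93% in the distance classes between. These intervals cover counting error only, and neighbouring regions are not independent. The BRG1-only share was 0.389% within 1 kb and 0.704% to 0.838% in the classes beyond, with no such order, and the share private to mixed pairs was 2.56% and 6.10%. Every set was thus rarest at gene ends, where 82.8% of union regions were shared by all 4 libraries. The stepwise order was broken with lists of equal length: the control-only share was 0.873% within 1 kb, 2.23%, 2.04%, 2.12% and 2.66% in the classes between, and 2.87% beyond 500 kb. The BRG1-only share was then 1.00% within 1 kb and 2.21% beyond 500 kb.

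With all peaks, length of the surrounding gene gave a similar order. Among union regions inside gene models, 3.05% were control-only in models of up to 50 kb and 6.24% in models over 500 kb (5.66 to 6.88, 376 of 6021 regions), against 4.66% outside models. The BRG1-only share was 0.636% and 0.897% in the same length classes, and the share private to mixed pairs was 4.26% and 6.26%. The median control-only region inside a model lay in a gene of 147984 bp, against 124551 bp for BRG1-only regions, 117297 to 129598 bp for the mixed sets and 96207 bp for regions called in all 4 libraries. In models over 500 kb the share with lists of equal length was 2.86% control-only, 2.32% BRG1-only and 7.06% private to mixed pairs. In models of up to 50 kb these shares were 1.68%, 1.43% and 4.28%. The stepwise order of the control-only share was then broken, with 1.58% in models of 50 to 100 kb.

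**Figure D3:**
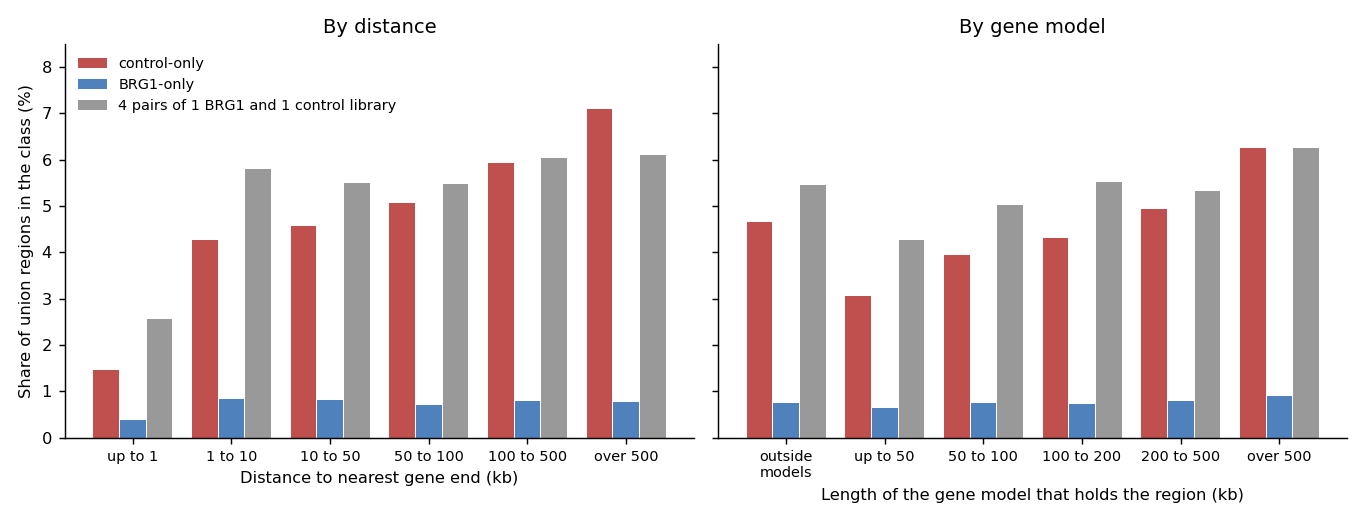
Share of union regions, in percent, that were control-only (red), BRG1-only (blue) or private to any of the 4 mixed pairs (grey), by distance to the nearest gene end (left) and by the length of the gene model that holds the region (right). The control-only share is 1.45% within 1 kb of a gene end and 7.10% beyond 500 kb, and the mixed pairs run from 2.56% to 6.10% over the same classes.

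Chromosomes differed less than distance classes did. The control-only share was lowest on chromosome 12, at 3.35% (2.89 to 3.88, 170 of 5079 regions), and was 4.93% on chromosome 1 (4.57 to 5.32, 632 regions) and 5.12% on X (4.41 to 5.94, 163 regions). On Y it was 6.48%, but with only 21 of 324 regions its interval ran from 4.28 to 9.70.

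With all peaks, some control-only regions lay in small groups. Among the 887 highest ranked regions of each set, they did so no more often than those of the other pairs. That cut took all placed BRG1-only regions but only the top of the control-only set. It cannot show whether control-only regions as a whole group beyond their number. When regions of the set no more than 50 kb apart were chained, 1308 of the 5286 placed regions (24.7%) fell into 604 loci of at least 2 regions, of which 520 had 2, 68 had 3 and 16 had 4. No locus had more than 4. Loci of at least 3 regions numbered 84, against 2 in the BRG1-only set and 1 to 6 in the mixed sets. The next region of the set lay 260 kb away at the median in the control-only set, 1538 kb in the BRG1-only set and 747 to 1235 kb in the mixed sets. Such spacing follows the size of a set, and with the 887 highest ranked regions of each set the gap was 1602 kb in the control-only set, 1538 kb in the BRG1-only set and 1558 to 1785 kb in the mixed sets. At that size 4.74% of control-only regions were in loci of at least 2, against 6.09% of BRG1-only regions and 5.07% to 6.88% of the mixed sets. With lists of equal length, 5 loci of at least 3 control-only regions were found, against 8 in the BRG1-only set.

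Of the 16 loci with 4 regions, 4 overlapped no protein-coding model, and the 10 tightest of the 16 are described here. The tightest spanned 25.9 kb of chromosome 11, from 52533096 to 52559007, and its nearest gene end was that of SPRY2, an inhibitor of receptor tyrosine kinase signalling, 374329 bp away. Its 4 regions had pileups of 14, 13, 9 and 12 in control 1 and 9, 17, 14 and 13 in control 4, and the whole span held 1 peak of BRG1 1 and 2 of BRG1 4 against 6 of each control. The second lay on chromosome 5 from 11584407 to 11611463, between LOC100156062 and RBFOX2, a splicing regulator, with 4 control-only regions among 6 and pileups of 17 to 23 in control 1 and 18 to 24 in control 4. None of the regions of either locus remained control-only with lists of equal length.

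The third, inside LOC106508546 on chromosome 13 from 180860067 to 180888041, was bare of BRG1 peaks. Its 4 union regions were all control-only, with pileups of 20, 10, 14 and 14 in control 1 and 19, 10, 14 and 15 in control 4. With lists of equal length 2 of the 4 remained control-only. The controls were close to each other at every one of these regions, with folds of 3.23 to 5.15 in control 1 and 3.38 to 5.73 in control 4.

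A locus of 54.8 kb on chromosome 1, from 270887587 to 270942336, had 2 control-only regions inside ABL1, which encodes a tyrosine kinase, 1 inside QRFP, which encodes a neuropeptide, and 1 inside FIBCD1. These were the only 4 of its 12 regions to be control-only, with pileups of 15 to 22 in control 1 and 17 to 28 in control 4, and 2 of the 4 remained so with lists of equal length. On chromosome 13 from 125462016 to 125516967, 60687 bp from the end of BCL6, which encodes a transcriptional repressor, 4 of 9 regions were control-only, with pileups of 11 to 27 in control 1 and 12 to 19 in control 4. The first of these loci also held 6 peaks of each BRG1 library, and the second 5 of each.

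On chromosome 2 from 90951531 to 91013406, 4 of 7 regions were control-only at 210061 bp from ATP6AP1L. Their values were nearly uniform, with pileups of 13 or 14 in control 1 and 12 to 17 in control 4. On chromosome 4 from 96108838 to 96174116, 4 of 8 regions lay around LOC110260465, between S100A6 and S100A7, genes of calcium-binding proteins. The region nearest to S100A6 stood on a high background and had a pileup of 52 in control 1 and 51 in control 4, while the other 3 had 8 to 21 in control 1 and 11 to 15 in control 4.

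In BICC1, which encodes an RNA-binding protein, 4 of 15 regions between 62037543 and 62116931 on chromosome 14 were control-only. Their pileups were 14, 23, 17 and 10 in control 1 and 12, 22, 17 and 12 in control 4, and at least 1 region called in all 4 libraries lay between each and the next. At LRRC28 on chromosome 1 from 138183578 to 138267221, 4 of 11 regions were control-only, 1 of them inside the model. The last of the 10, on chromosome 1 from 130396652 to 130483685, held VPS18, RHOV, SPINT1 and PPP1R14D, and its first region lay 10241 bp from DLL4, which encodes a Notch ligand. Of its 14 regions 7 were called in all 4 libraries and 4 were control-only, none of which remained so with lists of equal length.

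Unbroken runs, in which neighbouring union regions were all control-only, were short. There were 4721 single regions, 255 runs of 2, 13 runs of 3 and 4 runs of 4. Besides LOC106508546, the runs of 4 lay at CCDC170 on chromosome 1 (14608099 to 14701948), at SIAH3 and SPERT on chromosome 11 (21502722 to 21629772) and at ATP6V0D2, which encodes a subunit of the proton pump of lysosomes and osteoclasts, on chromosome 4 (50745183 to 50876361). The fifth run, the tightest of the runs of 3, spanned 11.9 kb at ZFAND6 on chromosome 7 from 49027468 to 49039332. At each of CCDC170, SIAH3, ATP6V0D2 and ZFAND6, 1 region of the run remained control-only with lists of equal length. KITLG, which encodes the ligand of the receptor KIT, and ATRX, which encodes a chromatin remodeller, each held a run of 3 inside the gene model, and were picked for this text with their values known. At KITLG the folds were 4.36 to 4.46 in control 1 and 4.66 to 5.28 in control 4, and 0 of the 3 remained control-only with lists of equal length. The next region of any kind was control-only for 5.55% of control-only regions, against their 4.41% share of placed regions, and BRG1-only for 0.564% of BRG1-only regions, against a share of 0.740%. In the mixed sets the same figures were 1.17% against 1.56% (BRG1 1 and control 1), 1.32% against 1.45% (BRG1 1 and control 4), 2.21% against 1.25% (BRG1 4 and control 1) and 1.43% against 0.988% (BRG1 4 and control 4), so the mixed sets with BRG1 4 also exceeded their share.

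**Figure D4:**
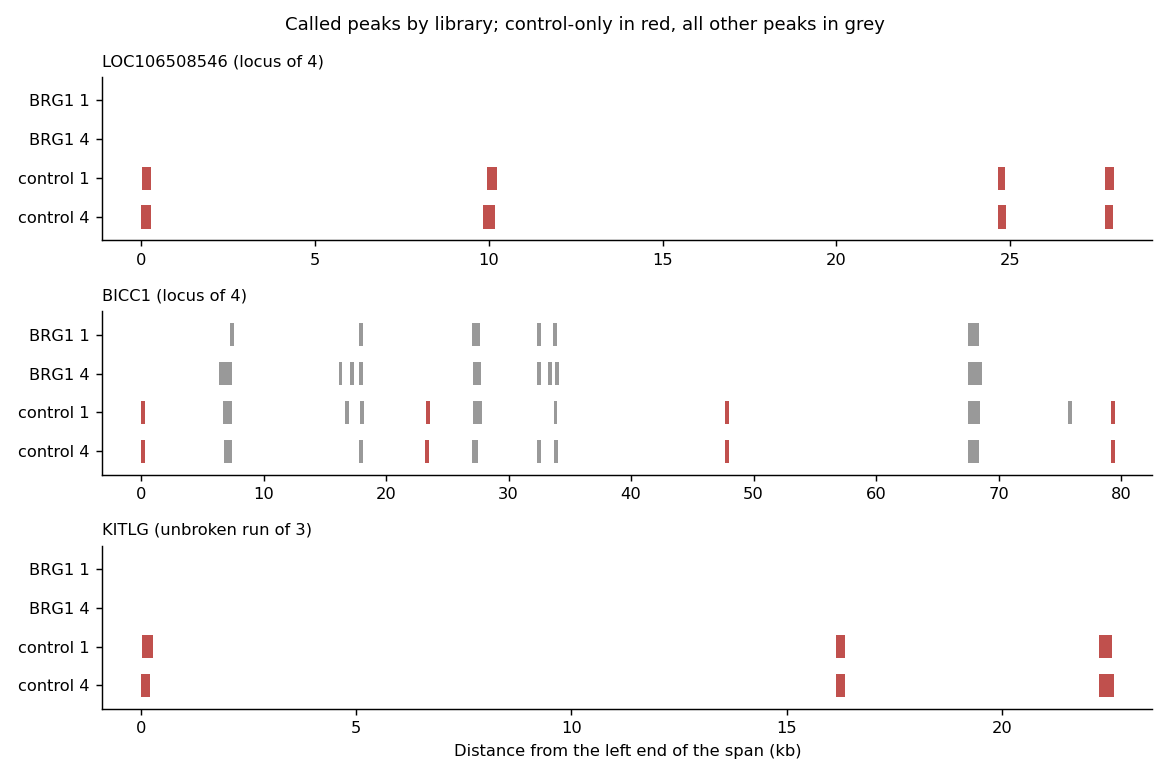
Called peaks of the BRG1 and control libraries along the spans of 3 loci, by distance from the left end of the span in kb, with peaks of control-only regions in red and all other peaks in grey, and each peak drawn at no less than 0.4% of the span. At LOC106508546 and KITLG no BRG1 peak is called, whereas in BICC1 control-only regions alternate with regions called in BRG1 libraries.

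Gene models with several control-only regions were mostly long. Of 19550 protein-coding models, 3104 (15.9%) had a control-only region inside or within 10 kb, and 2134 had at least 1 inside. The number inside was 1 in 1723 models, 2 in 286 and 3 or more in 125. With lists of equal length 8.03% of models had a control-only region inside or within 10 kb, and 12 had 3 or more inside. Without BRG1 1, BRG1 4, control 1 and control 4 in turn, that share was 33.5%, 23.8%, 29.0% and 29.7%, and 534, 318, 472 and 507 models had 3 or more. Models with such a region had a median length of 68.8 kb, against 20.7 kb for all models. ADAMTSL1, which encodes a secreted relative of matrix proteases, had 7 control-only regions among the 50 regions of its 1008 kb, and 2 BRG1-only ones. ANKS1B, which encodes an adaptor protein of synapses, also had 7, among 30 regions in 1068 kb, and no BRG1-only one.

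FNDC3B had 6 control-only regions among 40 in 344 kb, RBMS3, which encodes an RNA-binding protein, 6 among 85, and MACROD2, which encodes an enzyme that removes ADP-ribose, 6 among 66. Models with 5 control-only regions included EPB41L2, which encodes a membrane skeleton protein, where they were among 24 regions, C14H12orf49 among 42, LTBP1, which encodes a binding protein of latent TGF-beta, among 54, and ADGRV1, which encodes a large adhesion receptor, among 36. Over the models named here, 0 to 3 regions each remained control-only with lists of equal length.

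The control-only regions of the highest rank included some on high and some on the lowest background. At TNFRSF12A, which encodes the receptor of the cytokine TWEAK, the region on chromosome 3 from 39166063 to 39166302 overlapped the gene end and had a pileup of 122 on a background of 41.2 in control 1 and of 143 on 39.9 in control 4. The folds were accordingly low, at 2.91 in control 1 and 3.52 in control 4, and a region called in all 4 libraries lay 891 bp away and a BRG1 peak 192 bp away. PPP1R18 (pileups of 108 in control 1 and 95 in control 4), ORAI3, which encodes a calcium channel (95 in control 1 and 103 in control 4), and HAUS6, of the mitotic spindle (79 in control 1 and 75 in control 4), were like it, within 3 kb of a region called in all 4 libraries. A region on an unplaced contig, with pileups of 104 in control 1 and 93 in control 4, and 1 at 96287 bp from BCAT1, which encodes an enzyme of amino acid breakdown, also stood above the lowest background.

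The remaining 4 of the 10 stood at the lowest background of the control-only peaks. On chromosome 13 from 143488981 to 143489323, 186198 bp from LSAMP, a neural adhesion gene, the pileup was 30 in control 1 and 28 in control 4, with folds of 10.6 in control 1 and 10.4 in control 4, and the nearest BRG1 peak lay 6181 bp away. Near LOC100624836 on X, the pileup was 29 in control 1 and 29 in control 4. Near LOC100737110 the controls differed more, at 22 in control 1 and 39 in control 4. Inside TJP1, which encodes the tight junction protein ZO-1, the region on chromosome 1 from 144948233 to 144948561 had 25 in control 1 and 31 in control 4, and lay 63965 bp from the nearest shared region and 11323 bp from the nearest BRG1 peak. All 10 regions remained control-only with lists of equal length, which follows from their choice by high rank.

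Width set other regions apart than rank did. The 5 widest control-only regions measured 959 bp in RAP1GAP2, which encodes a regulator of the GTPase Rap1, 873 bp near HRASLS5, 800 bp in SENP5, which encodes a SUMO protease, 781 bp near LMO1, which encodes a transcriptional cofactor, and 771 bp near LOC102166107. Their percentiles were modest, from 3.09 in control 1 and 1.31 in control 4 at SENP5 to 42.0 in control 1 and 37.7 in control 4 near LOC102166107. Only those of RAP1GAP2 and LOC102166107 remained control-only with lists of equal length. BRG1-only regions were wider as a set, at a median of 321 bp, and the mixed sets measured 323 or 324 bp where BRG1 4 was the BRG1 library and 273 or 278 bp where BRG1 1 was.

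Genes of 23 lists of pathways and cell types were then read beside all genes. Of 565 matched list genes, 177 had a control-only region inside or within 10 kb. Among all 81723 union regions in or near protein-coding genes, 3306 (4.05%) were control-only, and 13 of the 23 lists had a higher share than that. A higher share of genes than the 15.9% of all genes was found for 21 of the 23, and because longer genes hold more regions the share of regions is given below. No list was tested.

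Axon guidance and neural adhesion genes, whose products steer growing axons and migrating cells, had, with all peaks, the highest share among lists with over 100 regions. Of their 677 regions, 47 (6.94%, 95% Wilson interval 5.26 to 9.11) were control-only and 3 were BRG1-only, and 28 of 38 genes had at least 1 control-only region. The median gene of that list was 450 kb long, so the length of the genes moved with this share, and its part was not tested. With lists of equal length the share was 3.01%, against 1.90% of all regions in or near genes, and the rank was lost, since integrins and laminins had 4.44%, pluripotency and early lineage genes 3.96% and inflammation and interferon genes 3.02%. NRP2, a co-receptor of semaphorins, had 2 control-only regions inside its model and 1 within 10 kb of it, inside LOC110256920. The one on chromosome 15 from 108988981 to 108989300 had a pileup of 23 in control 1 and 30 in control 4 and remained control-only with lists of equal length. PLXNA2, a semaphorin receptor, and NTM, LRP1B and CNTNAP2, which encode neuronal surface proteins, had 3 each. In LRP1B, none of the 3 remained with lists of equal length, and control 1 stood above control 4 at each, with pileups of 14, 18 and 15 in control 1 and 9, 8 and 11 in control 4.

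Integrins and laminins, the receptors and basement membrane proteins of cell adhesion, had 18 control-only regions of 294 (6.12%, 3.91 to 9.47), at 13 of 26 genes, and 4.44% with lists of equal length. LAMA4, a laminin chain, had 3, and all of them remained with lists of equal length. Their pileups were 21, 25 and 32 in control 1 and 19, 18 and 41 in control 4, in order along chromosome 1 from 78112348 to 78199507. The growth hormone, insulin and IGF axis had 15 of 237 (6.33%, 3.87 to 10.2), at 10 of 20 genes, and 2.75% with lists of equal length. GHR, the growth hormone receptor, had 3 control-only regions among 17, with pileups of 16, 17 and 16 in control 1 and 13, 13 and 18 in control 4, and 2 remained with lists of equal length. PAPPA, a protease that releases IGF from its binding proteins, had 3, none of which remained.

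The Hippo pathway, which relays cell density and tension to transcription, had 16 of 259 (6.18%, 3.84 to 9.80), and 2.52% with lists of equal length. AMOTL1, which binds the co-activator YAP, had 3 inside its model and 1 within 10 kb, at pileups of 13 to 20 in control 1 and 11 to 18 in control 4. TEAD1, the DNA-binding partner of YAP, had 3 among 44 regions in or near its model, none of which remained with lists of equal length. With all peaks, other signalling lists lay near the 4.05% of all regions: TGF-beta and BMP genes had 14 of 351 (3.99%), 5 of these at LTBP1, WNT genes 10 of 243 (4.12%) and FGF and PDGF genes 8 of 224 (3.57%). They parted with lists of equal length, at 2.81% for TGF-beta and BMP genes, 2.71% for WNT genes and 0.995% for FGF and PDGF genes. Among WNT genes, ROR2, a WNT5A receptor, had 3 that all remained with lists of equal length, at pileups of 45, 19 and 15 in control 1 and 48, 13 and 20 in control 4. TCF7L2, a transcription factor of the pathway, had 3 and none remained.

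FGF10, a growth factor of mesenchyme, had 1 control-only region 95 bp outside its model, at pileups of 12 in control 1 and 11 in control 4, and 1 inside on chromosome 16 from 28748144 to 28748447, at 19 in control 1 and 26 in control 4. The inner one remained with lists of equal length. FGF18, of the same family, had 2 inside its model, 1 of them on a background of 21.9 in control 1 and 20.1 in control 4. Actin and adhesion genes had 18 of 441 (4.08%), 2 of them at RHOA, a GTPase that directs actin stress fibres. At RHOA 1 region lay inside the model and the other inside AMT, a neighbouring gene.

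With all peaks, lists of matrix, cell cycle and chromatin genes lay below the share of all regions. Fibroblast and matrix genes had 9 control-only regions of 322 (2.80%, 1.48 to 5.23), none with more than 1 per gene. Cell cycle and replication genes had 3 of 143 (2.10%, 0.716 to 5.99), histone modification and DNA methylation genes 12 of 403 (2.98%) and BAF complex genes 8 of 250 (3.20%), 3 of them at ARID1B, a DNA-binding subunit of the complex. At ARID1B the pileups were 9, 22 and 20 in control 1 and 11, 14 and 13 in control 4, and all but the first of them remained with lists of equal length. Fibroblast and matrix genes had 2.01% with lists of equal length, above the 1.90% of all regions in or near genes, while cell cycle genes had 0.741%, histone modification and DNA methylation genes 1.33% and BAF complex genes 0.873%. Mesenchymal transcription factors had 24 of 735 (3.27%, and 1.19% with lists of equal length), 4 of them at GLI3, an effector of Hedgehog signalling, where control 1 had 23, 11, 13 and 11 and control 4 had 15, 15, 20 and 11.

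AP-1 and serum response genes, which respond to serum in fibroblasts, had 8 of 156 (5.13%, 2.62 to 9.79), pluripotency and early lineage genes 6 of 117 (5.13%) and imprinted genes 4 of 103 (3.88%). Inflammation and interferon genes had 11 of 218 (5.05%), and at 6 of 218 (2.75%) they had the highest BRG1-only share of the lists with over 100 regions. Markers of other cell types held few regions in all. Control-only were 7 of 86 regions at adipocyte markers (8.14%, 4.00 to 15.9), 4 of them at ZNF423, a transcription factor of adipocyte precursors, 4 of 49 at immune, 3 of 33 at melanocyte and glial, 3 of 53 at skeletal muscle and 2 of 85 at endothelial markers. At adipocyte markers 1 of 73 regions was control-only with lists of equal length (1.37%), which is below the share of all regions in or near genes, and 0 of 42 at skeletal muscle, 0 of 77 at endothelial, 2 of 44 at immune and 2 of 30 at melanocyte and glial markers. Keratinocyte markers had 0 of 24, with an upper limit of 13.8%, and 2 BRG1-only regions. At ZNF423 the pileups of the 4 regions were 15, 13, 12 and 12 in control 1 and 15, 18, 11 and 19 in control 4, and 1 remained with lists of equal length.

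**Figure D5:**
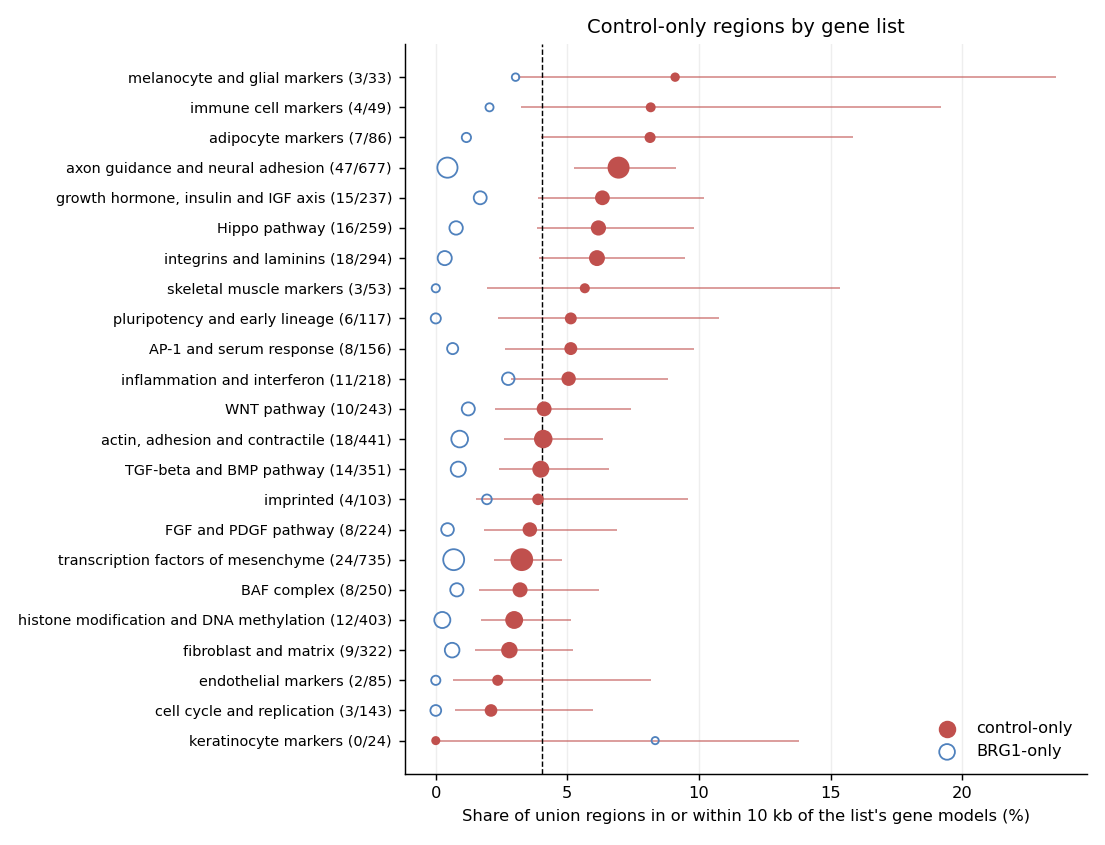
Share of union regions in or within 10 kb of the genes of each list, in percent, that were control-only (filled, with 95% Wilson intervals as lines) or BRG1-only (open), with the point size following the number of regions and the dashed line at the 4.05% of all regions near genes. Counts of control-only regions and of all regions of a list stand in parentheses. Axon guidance and neural adhesion genes, at 6.94%, are the list with over 100 regions that lies farthest above the line.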

How the data were processed

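ATAC-seq peaks of 2 BRG1 and 2 control libraries of porcine fetal fibroblasts were used as the authors deposited them, as 1 peak list per library. Per the submitters' processing notes the tools were MACS2, SAMtools, Bowtie, BWA and FastQC, without versions or roles, and the build was Sscrofa11.1. The deposited fold is a ratio of summit pileup to background, and the −log10 q-value and −log10 p-value of each peak were deposited as the authors' caller gave them per library. The deposited score was not used. The lowest −log10 q was 1.31 to 1.35. The sources used here do not give read shifting for Tn5, duplicate handling or caller settings, and each can change the number and width of peaks.

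Peaks were merged into union regions at 1 bp of overlap, and a region private to a pair of libraries had a peak of both and of no other. Where a region held several peaks of a library, the one with the highest −log10 p was taken. Pileup and background were solved from fold and −log10 p (tolerance 0.0001, 1 tag added to each), tested on simulated data. Gene starts and ends of 19550 protein-coding models came from a RefSeq table of Sscrofa11.1, which gives no strand, exon or UTR, so promoter, exonic and intronic positions were not assigned. Loci joined members at gaps of up to 50 kb, and genes were read within 10 kb. No test was run, since the calls chose the members. No sequence was used here.

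The members and the 23 gene lists were chosen with earlier results of these data known. Named were the 10 loci with most members, the 10 models with most members, the 10 highest and 5 widest members, the 5 longest runs (ties by shorter span), up to 20 list genes with at least 2 members, and SMARCA4; a part of the rule on promoter sequences was not applied. The values of 1 gene that the rule names are not reported here. Reads per library are unknown, which leaves read counts without intervals. Alternatives were a −log10 q of at least 5, lists of equal length, placed chromosomes, overlap of 50% of the shorter interval, other gaps and windows, and leaving out each library. Python 3.11.15, pandas 2.3.3, numpy 2.4.6, scipy 1.17.1 and matplotlib 3.10.9 were used.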

Additional observations from a re-analysis of the deposited data

How the results depend on the processing

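With lists of equal length there were 2240 control-only regions, 5 loci of at least 3, a median distance to a gene end of 26177 bp and a median width of 295 bp; the excess of that distance over the highest of the other 5 pairs, 4014 bp with all peaks, turned to −4996 bp, a comparison added after seeing the data. A −log10 q of at least 5 gave 30283 bp and 299 bp. Locus gaps of 20 kb and 100 kb gave 18 and 226 loci. Leaving out each library, which lets fewer libraries decide a call, gave 8890 to 13217 regions, 27505.5 to 31784 bp, 319 to 838 loci and widths of 230 to 305 bp. Of 74 values, 30 stayed within their limits, 43 moved and 1 turned round. The share inside gene models stayed within its interval throughout. No paired analysis was possible because the results come from no test. As a description, the mixed sets of same-numbered libraries had 1904 and 1205 regions, and those of unlike numbers 1513 and 1782. The number of reads per library is unknown, and a region without a call may lie below what its depth could show.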
